A study of Mus musculus with 21 samples.

Results

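The 29 genes described here encode the machinery of DNA replication in S phase, from origin licensing and the replicative helicase to the polymerases, the sliding clamp, nucleotide supply and the chromatin factors that follow the fork. They are a list of gene names, drawn up with earlier results of these data known, and all 29 had a value in every one of the 4 tables, which hold 14698 genes in any table and 9973 in all 4. RNA-seq was performed on Ba/F3 cells, a mouse line labelled as pro-B cells that normally depends on interleukin-3, and every one of the 21 libraries came from Ba/F3 cells expressing JAK2-V617F, a kinase mutant that signals without cytokine. The libraries fell into 7 groups of 3. DMSO_treated, CHZ_treated and Ruxo_treated cells were kept for 6 h in DMSO, 1 μM CHZ868 or 1 μM ruxolitinib. CHZ_wash and Ruxo_wash cells received 1 μM of the respective inhibitor for 1 h, were washed 3 times in PBS and then went 6 h without it. Their controls were DMSO_wash_exp3 for CHZ_wash and DMSO_wash for Ruxo_wash, both with 1 h in DMSO and a washout of 6 h. Ruxolitinib is a type I inhibitor that binds the active conformation of JAK1 and JAK2, and CHZ868 is a type II inhibitor that binds inactive JAK2. The sources used here do not say whether the line was 1 clone or whether the 3 libraries of a group came from separate cultures, so the p-values measure the spread between these libraries, which may be technical.

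Of 9 fixed pro-B markers the tables list 2, Cd79a and Cd79b, at means of 4.12 and 3.77 log2 CPM in DMSO_treated, and the others are not analysed here. Of 5 fixed marker genes that Ba/F3 cells are known to express, 4 were listed in every table. These were the cytokine receptor genes Il3ra, Csf2rb and Csf2rb2 and the transcription factor gene Gata2. Kit, the remaining marker, was not among the genes tested in any comparison. On the listed genes, 15 libraries held 7880000 to 10670000 reads (median 9090000), and the depth of the 6 libraries of the Ruxo_wash table is unknown. In those 15 libraries the members were covered by 97 (Gins1) to 7458 (Rrm1) reads per library. Measured as the SD over the 29 members of a library's difference from the mean of the other 2 of its group, Ruxo_treated replicate 2 lay at 0.21 and DMSO_wash_exp3 replicate 3 at 0.19, against 0.09 to 0.17 in the other 19 libraries, and the main counts that rest on these 2 are also given without them. Taken over all genes of a table, the same SD was 0.83 to 0.88 in the 6 libraries of the Ruxo_wash table and 0.19 to 0.38 in the other 15. In bulk RNA, a larger share of cells in S phase and more RNA of a gene per cell cannot be told apart.

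Replication is prepared in G1, when Cdc6 and Cdt1 load the MCM2-7 ring onto origins, and it starts when Cdc45 and the GINS complex join the ring and cyclin E with Cdk2 becomes active. Primase and polymerase alpha then start each strand, Rfc loads the clamp Pcna, polymerases epsilon and delta extend the leading and lagging strands, and Fen1 and Lig1 finish the lagging strand. Most of these genes are classical targets of E2F factors, which are held in check by the Rb family until cells pass into S phase. In cells driven by a cytokine receptor kinase, JAK2 signalling through STAT5 feeds into this entry, and Cish, Pim1 and Socs1 are direct readouts of that signal.

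Promoters are shown for the 3 members with the largest increase under continuous CHZ868, for the helicase subunit with the next largest increase among those whose window holds an E2F word, and for the 1 member that passed the test after CHZ868 washout. Each is the RefSeq window from 250 bases before to 50 bases after the start on build GRCm38.p6, written 5′ to 3′ along the gene's strand. Capitals mark the E2F words TTTCCCGC, TTTGGCGC, TTTCGCGC and TTTGCCGC and the word CCAAT, searched on both strands, so that GCGGGAAA or ATTGG is the same word read from the other strand. Words may overlap, as in the run of 12 capitals in Mcm6, which holds 2 E2F matches, and in the run in Mcm7 where an E2F word runs into CCAAT.
Rrm1 (chr7:102441445-102441744, plus strand): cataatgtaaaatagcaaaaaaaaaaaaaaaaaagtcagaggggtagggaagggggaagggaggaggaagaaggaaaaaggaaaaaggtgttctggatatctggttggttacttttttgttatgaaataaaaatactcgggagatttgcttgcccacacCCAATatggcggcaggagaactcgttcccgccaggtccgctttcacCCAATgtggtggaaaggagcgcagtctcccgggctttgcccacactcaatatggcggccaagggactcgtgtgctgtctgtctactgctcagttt
Pcna (chr2:132253131-132253430, minus strand): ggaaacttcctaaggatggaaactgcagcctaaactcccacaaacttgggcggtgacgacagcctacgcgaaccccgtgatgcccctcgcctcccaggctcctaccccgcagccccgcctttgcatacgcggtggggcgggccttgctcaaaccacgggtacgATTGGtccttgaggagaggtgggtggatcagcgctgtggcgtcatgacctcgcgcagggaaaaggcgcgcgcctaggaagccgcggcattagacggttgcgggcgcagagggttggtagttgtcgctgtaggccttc
Mcm6 (chr1:128359656-128359955, minus strand): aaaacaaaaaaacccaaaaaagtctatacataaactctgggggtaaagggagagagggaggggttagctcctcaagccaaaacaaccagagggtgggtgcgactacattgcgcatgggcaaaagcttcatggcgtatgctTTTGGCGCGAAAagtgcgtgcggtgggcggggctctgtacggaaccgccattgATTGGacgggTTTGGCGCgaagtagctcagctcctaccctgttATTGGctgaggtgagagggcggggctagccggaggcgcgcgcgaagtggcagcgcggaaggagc
Mcm7 (chr5:138171834-138172133, minus strand, the second of its 2 windows): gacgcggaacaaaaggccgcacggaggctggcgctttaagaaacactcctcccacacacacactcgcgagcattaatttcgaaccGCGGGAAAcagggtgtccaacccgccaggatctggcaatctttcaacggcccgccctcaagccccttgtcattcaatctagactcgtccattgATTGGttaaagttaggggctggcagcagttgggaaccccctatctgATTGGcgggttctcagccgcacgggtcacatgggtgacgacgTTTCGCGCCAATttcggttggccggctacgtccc
Cdt1 (chr8:122567765-122568064, plus strand): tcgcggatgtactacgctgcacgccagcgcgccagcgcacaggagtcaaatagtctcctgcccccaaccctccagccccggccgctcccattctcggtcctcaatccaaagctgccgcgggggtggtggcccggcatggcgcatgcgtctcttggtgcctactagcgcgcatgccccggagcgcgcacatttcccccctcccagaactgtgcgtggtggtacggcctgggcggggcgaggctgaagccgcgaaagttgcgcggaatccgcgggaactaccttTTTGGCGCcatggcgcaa

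An E2F word was found in a window of 11 of the 24 members with a RefSeq window (45.8%), against 704 of 27025 genes with a window (2.6%). CCAAT, which NF-Y binds, was found in 15 of 24 members (62.5%) and in 41.1% of all genes. The STAT word TTCNNNGAA (GAS) was found in 2 of 24 members (8.3%), Lig1 and Mcm5, and in 9.6% of all genes, and the late cell cycle word TTTGAA (CHR) was found in 2 of 24 members (8.3%) and in 20.2% of all genes. Among the 13 members with a window that rose under continuous CHZ868, 7 held an E2F word and 11 held CCAAT, and among the 11 that did not pass the test, 4 held an E2F word and 4 held CCAAT. Rrm1 and Pcna, the members with the largest increases, held CCAAT but no E2F word, while Mcm6 held 3 E2F matches and Cdt1 held 1. These are counts of letters in a short window and were not tested.

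Annotated positions (GENCODE M21, GRCm38) place the 29 genes on 14 chromosomes. Transcripts of 5 members, Mcm7, Pcna, Rrm2, Tyms and Uhrf1, match a processed pseudogene (and for Tyms pieces of other transcripts) at 90% identity or more over at least 300 bases, so reads could have been shared and their values are less certain. Exons of 8 members, Ccne2, Chaf1a, Fen1, Gins2, Lig1, Mcm7, Pole and Rfc4, overlap a gene on the opposite strand. The shared length was largest for Chaf1a with Ubxn6 (4648 bases) and Gins2 with Gse1 (2758 bases), and it is not given in the sources used here whether reads were counted by strand.

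Continuous exposure to CHZ868 was compared with DMSO at 6 h to ask what type II inhibition of JAK2 does to the replication genes. Of the 29 members 18 rose, 0 fell and 11 did not pass the test, with a median difference of 0.21 log2 units. Over all 11670 genes tested, 26.8% rose and 26.4% fell at the same threshold and the median was -0.01. Among the 7942 genes whose mean level lay within the range of the members' means, 33.3% rose and 26.2% fell. The test was limma with a mean-variance trend, and p-values were adjusted by Benjamini-Hochberg over all genes of the table. Quantile normalization, which forces every library to the same distribution, left 9 of the 29 members higher and 1 lower (Chaf1a). The 9 were Mcm4, Mcm6, Mcm7, Gins1, Prim1, Lig1, Pcna, Rrm1 and Ccne2. In that setting 27.2% of all genes were higher and 25.1% lower. Among the 7942 genes within the range of the members' means it was 30.9% and 28.1%. The share of members higher was close to that of genes at similar levels, and the share lower was smaller. The median difference in that setting was 0.15 for the members and 0.03 for those genes. Of the 18, 4 (Rrm1, Pcna, Mcm6 and Gins1) reached 0.58 log2 units, where 10.7% of all genes rose and 14.5% fell by at least that. The 3 CHZ_treated libraries lay above all 3 DMSO_treated libraries in 20 members and below them in 0 (29.6% and 30.1% of all genes). In the same libraries the STAT5 target genes Socs1, Pim1 and Cish fell by 5.20, 3.20 and 1.39 on the log2 scale. Of the 4 listed Ba/F3 marker genes 3 also fell (median -0.29), and 1 of the 2 listed pro-B markers rose. Pecam1, the only listed gene of 9 markers of other cell types, rose by 0.77. The part of these shifts in the result was not tested.

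**Figure D1:**
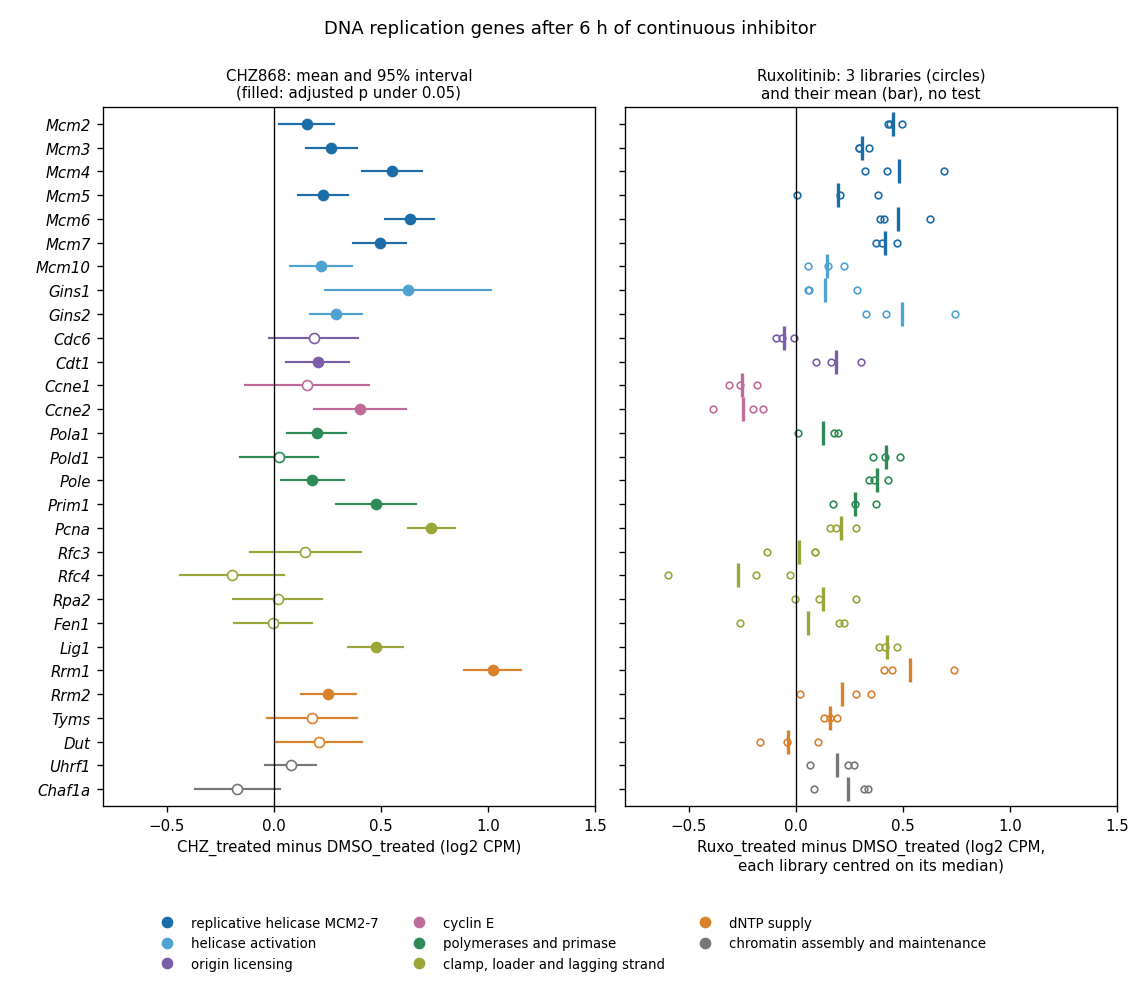
Differences in log2 CPM after 6 h of continuous inhibitor for the 29 members, grouped by role. Left, CHZ_treated minus DMSO_treated as mean and 95% interval, filled where the adjusted p passed 0.05 (18 members, all to the right of 0). Right, Ruxo_treated minus the DMSO_treated mean for each of 3 libraries (circles) and their mean (bar), with each library centred on its median. Rrm1 lay at 1.02 for CHZ868 and 0.53 for ruxolitinib.

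All 6 MCM2-7 subunits, which together form the ring that unwinds DNA at the fork, were higher in CHZ_treated, by 0.15 to 0.63 log2 units (median 0.38). Mcm6 stood at 8.66, 8.61 and 8.70 log2 CPM in the 3 DMSO_treated libraries and at 9.33, 9.28 and 9.27 in the 3 CHZ_treated libraries. The groups were far apart relative to their spread, and the difference was 0.63 ± 0.05 (SE, limma, adjusted p = 1.52e-07), an increase of 55.1%. Mcm4 rose by 0.55 ± 0.07 (adjusted p = 5.88e-06) and Mcm7 by 0.49 ± 0.06 (adjusted p = 4.81e-06), while Mcm3 and Mcm5 rose by 0.27 and 0.23. Mcm2 was the weakest, at 7.53, 7.57 and 7.58 log2 CPM in DMSO_treated and 7.69, 7.80 and 7.65 in CHZ_treated. Its groups did not overlap, but the difference of 0.15 ± 0.06 passed narrowly (adjusted p = 0.0479) and failed in 9 of 18 alternative settings, among them leaving out DMSO_treated replicate 1, 2 or 3 or CHZ_treated replicate 2 (adjusted p = 0.0955 to 0.166). Mcm6 passed in all 18, and Mcm2, Mcm3 and Mcm5 were not called after quantile normalization.

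The 3 genes of helicase activation also rose. Gins1, a GINS subunit of the active helicase, stood at 3.50, 3.82 and 4.16 log2 CPM in DMSO_treated and 4.55, 4.60 and 4.20 in CHZ_treated. The groups did not overlap, although the gap between the highest control and the lowest treated library was small, and the difference was 0.62 ± 0.18 (adjusted p = 0.00942, or 0.0581 without DMSO_treated replicate 1). Gins2, another GINS subunit, rose by 0.29 ± 0.06 and Mcm10, which helps the helicase leave the origin, by 0.22 ± 0.07. Of the licensing factors, Cdt1 rose by 0.21 ± 0.07 (adjusted p = 0.0209), a call that was lost without DMSO_treated replicate 2 or 3, as was that of Mcm10 without replicate 2, whereas the difference for Cdc6 was 0.19 ± 0.10 (adjusted p = 0.122). Of the cyclin E genes, Ccne2 rose by 0.40 ± 0.10 (adjusted p = 0.00369) and Ccne1 differed by 0.16 ± 0.14 (adjusted p = 0.351).

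Among the polymerase genes, Prim1, the catalytic primase subunit, rose most, by 0.48 ± 0.09 (adjusted p = 0.000311). Pola1 (polymerase alpha) rose by 0.20 ± 0.06 and Pole (polymerase epsilon) by 0.18 ± 0.07. Pold1, the catalytic subunit of polymerase delta, stood at 6.01, 6.22 and 6.10 log2 CPM in DMSO_treated and at 6.03, 6.24 and 6.13 in CHZ_treated. These values overlapped almost completely, and the 95% interval of the difference ran from -0.16 to 0.21. The calls for Pole and Pola1 failed in 9 and 6 of 18 alternative settings, Pole without any 1 of 5 libraries (all but CHZ_treated replicate 3) and Pola1 without DMSO_treated replicate 2 or 3.

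The genes of the clamp, its loader and the lagging strand were split. Pcna, the sliding clamp, stood at 8.44, 8.44 and 8.46 log2 CPM in DMSO_treated and at 9.18, 9.20 and 9.16 in CHZ_treated. This was among the tightest differences of the set, 0.73 ± 0.05 (adjusted p = 1.94e-08), an increase of 66.4%. Lig1, the ligase that seals Okazaki fragments, rose by 0.47 ± 0.06 (adjusted p = 1.1e-05). The other 4 genes of this role did not pass. Rfc3 and Rfc4, subunits of the clamp loader, differed by 0.15 ± 0.12 and -0.20 ± 0.11, Rpa2, which coats single strands, by 0.02 ± 0.10, and the flap nuclease gene Fen1 by -0.01 ± 0.09. The upper ends of the 95% intervals were 0.40 for Rfc3, 0.23 for Rpa2, 0.18 for Fen1 and 0.05 for Rfc4. The interval of Lig1 began at 0.35, above the upper ends for Rpa2, Fen1 and Rfc4 but below that for Rfc3.

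The nucleotide supply genes held the largest difference of all members. Rrm1, the large subunit of ribonucleotide reductase, stood at 8.54, 8.48 and 8.55 log2 CPM in DMSO_treated and at 9.53, 9.44 and 9.66 in CHZ_treated. It doubled, with an increase of 103% (1.02 ± 0.06, adjusted p = 4.16e-09) that passed in all 18 alternative settings. Rrm2, the small subunit that is usually limiting in S phase, rose by only 0.25 ± 0.06 (adjusted p = 0.00232). Tyms, which makes thymidylate, differed by 0.18 ± 0.10 (adjusted p = 0.143) and Dut, which keeps uracil out of DNA, by 0.21 ± 0.09 (adjusted p = 0.0729). The chromatin genes did not pass. Uhrf1, which directs maintenance of DNA methylation, differed by 0.08 ± 0.06, and Chaf1a, the large subunit of the histone chaperone CAF-1, by -0.17 ± 0.09. Chaf1a stood at 6.57, 6.54 and 6.90 log2 CPM in CHZ_treated against 6.95, 6.82 and 6.75 in DMSO_treated, so replicate 3 lay within the controls and the other two below them. Without CHZ_treated replicate 3 it was called lower (-0.29, adjusted p = 0.00333) and Dut was called higher (0.34, adjusted p = 0.000765), and without replicate 1 Tyms was called higher (0.29, adjusted p = 0.00951) and Rfc4 lower (-0.29, adjusted p = 0.0327).

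**Figure D2:**
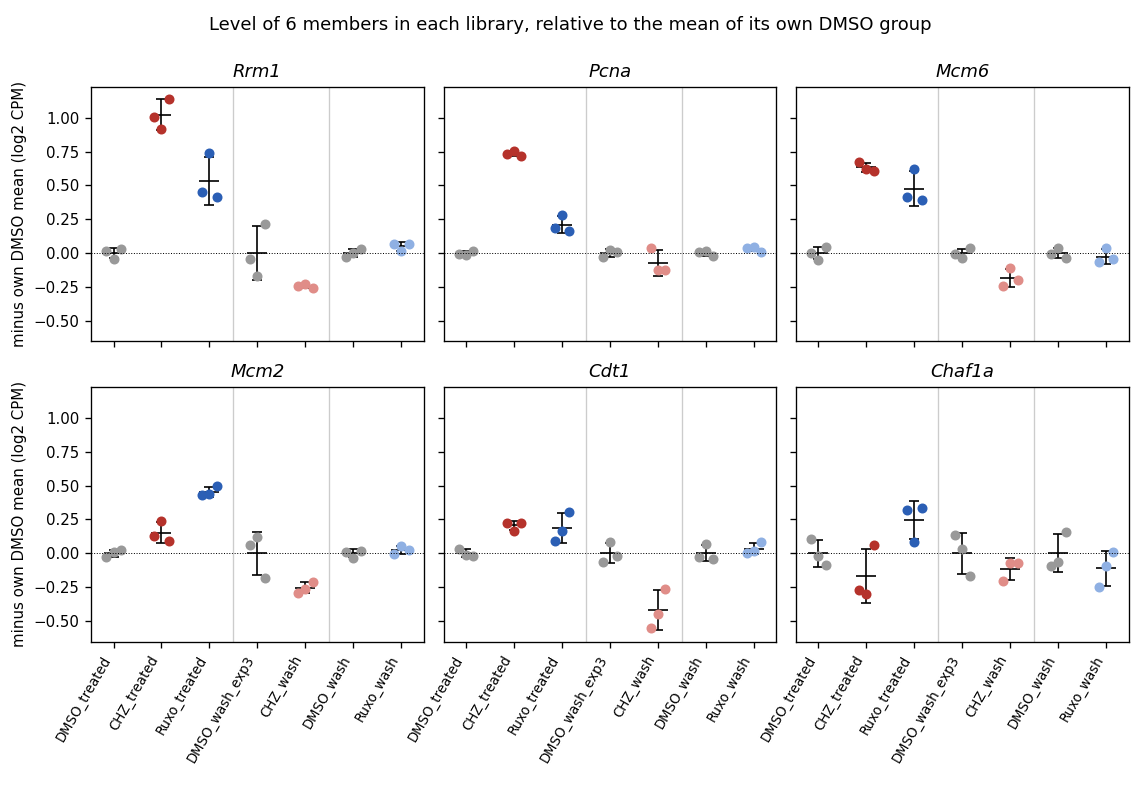
Each point is 1 library, given as log2 CPM minus the mean of its own DMSO group, for Rrm1, Pcna, Mcm6, Mcm2, Cdt1 and Chaf1a. Ruxo_treated values were set against DMSO_treated after each library was centred on its median, and the other groups were not centred. Black bars show mean ± SD of 3 libraries, grey points are the DMSO groups, and vertical lines separate the 3 experiments. Under continuous CHZ868 the Pcna points sit near 0.73 and after washout near -0.07.

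Continuous ruxolitinib was set beside the same DMSO_treated libraries. Ruxo_treated libraries stand in a table of their own that was normalized separately, and every library was therefore shifted by its own median of the 11624 genes in both tables. The comparison is a description with no test, since the inhibitor and the table cannot be told apart. The 3 Ruxo_treated libraries lay above all 3 DMSO_treated libraries in 16 members and below them in 1, with overlap in 12 (24.6% and 20.1% of all genes). The members' median difference was 0.20, against 0.04 over all shared genes. None of the members reached 0.58, for which no share of all genes is given. Without Ruxo_treated replicate 2 the counts were 20 and 1 (31.6% and 25.7% of all genes). The inhibitor activity genes Socs1, Pim1 and Cish were lower in Ruxo_treated with no overlap, by values between -4.06 and -1.32.

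Of the MCM2-7 genes, 5 lay above DMSO_treated with no overlap, at 0.31 to 0.48, and Mcm5 was at 0.20 with replicate 2 inside the range of the controls. Rrm1 stood at 3.72, 4.01 and 3.69 log2 units above the library median in Ruxo_treated and at 3.29, 3.23 and 3.30 in DMSO_treated. The groups did not overlap, the difference was 0.53, and replicate 2 was the highest. Pcna differed by 0.21, Lig1 by 0.43, Gins2 by 0.50, Pold1 by 0.42 and Pole by 0.38, all 5 with no overlap. Without replicate 2, Rrm1 was at 0.43, Gins2 at 0.37 and Mcm4 at 0.37 instead of 0.48. The cyclin E genes were below the DMSO mean. Ccne1 differed by -0.25 with no overlap, and Ccne2 by -0.25 with overlap.

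Set directly against CHZ_treated on the centred scale, Ruxo_treated was higher with no overlap in 3 members (Mcm2, Pold1 and Pole) and lower in 8 (Mcm6, Pcna, Rrm1, Cdc6, Gins1, Prim1, Ccne1 and Ccne2). Over all shared genes the shares were 18.6% and 16.7%. Without Ruxo_treated replicate 2 the counts were 7 and 10, and the shares of all genes 28.7% in either direction. Among these 11 the widest gaps were Ccne2 (-0.68), Pcna (-0.55), Gins1 and Rrm1 (both -0.52) on the lower side and Pold1 (0.37) and Mcm2 (0.28) on the higher side. Pold1 stood at 1.28, 1.22 and 1.35 log2 units above the library median in Ruxo_treated and at 0.81, 1.01 and 0.92 in CHZ_treated. These gaps compare libraries of 2 tables and carry no test.

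**Figure D3:**
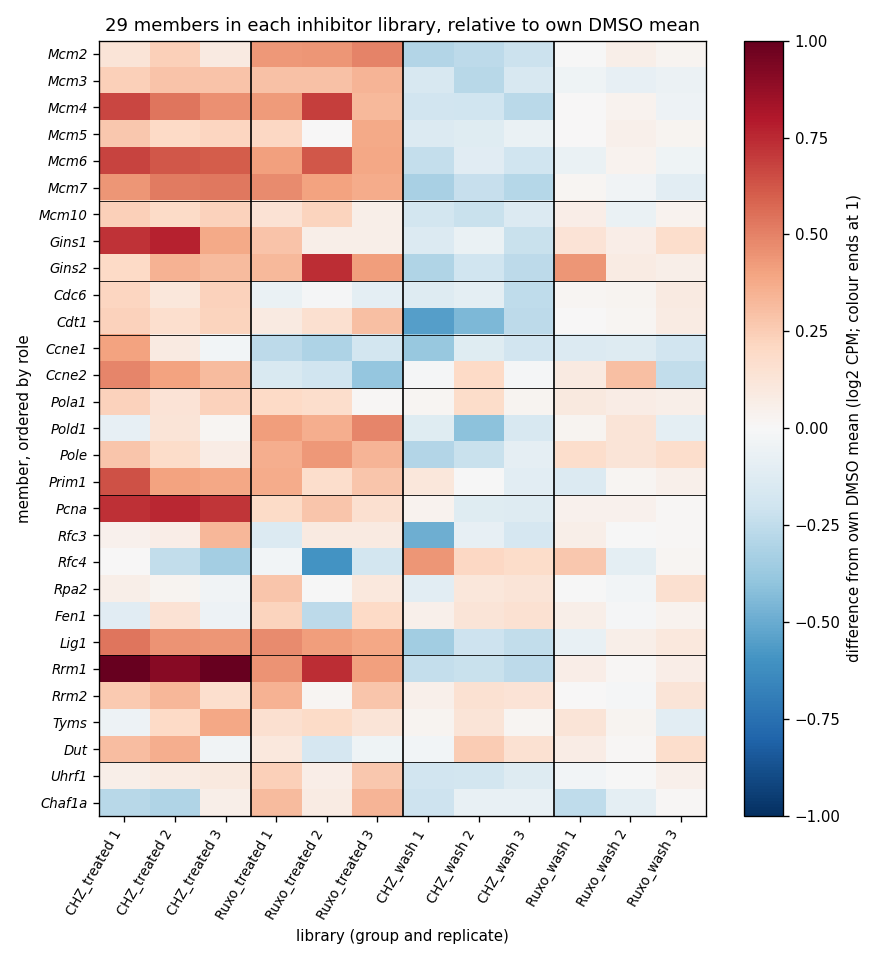
Colour gives log2 CPM minus the mean of the library's own DMSO group for 29 members (lines, by role) in the 12 inhibitor libraries (columns). Red is above and blue below, with the scale ending at 1 in either direction. Ruxo_treated values were set against DMSO_treated after each library was centred on its median, and the other groups were not centred. Between 22 and 27 members lay above 0 in each continuously treated library, 7 or 8 in each CHZ_wash library and 18 to 21 in each Ruxo_wash library.

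After ruxolitinib washout no difference in the replication genes was detected. None of the 29 members was called (0 higher, 0 lower), with differences from -0.15 (Ccne1) to 0.19 (Gins2), a median of 0.03 and a lowest adjusted p of 0.639. The 95% interval was widest for Ccne2 and Gins2, where it ran from -0.30 to 0.39 and from -0.23 to 0.61. Over all 13085 genes 0% were called higher and 0.0229% lower (3 genes by limma, 920 at an unadjusted p under 0.05). Pole alone had an unadjusted p under 0.05 among the members. It stood at 4.89, 4.84 and 4.89 log2 CPM in Ruxo_wash and 4.71, 4.72 and 4.71 in DMSO_wash, a difference of 0.16 ± 0.05 (adjusted p = 0.639). Groups did not overlap in 2 members to the higher side and 1 to the lower (6.30% and 6.59% of all genes). Rrm1 differed by 0.05 ± 0.03 and Pcna by 0.03 ± 0.02. The inhibitor activity genes Cish, Pim1 and Socs1 were not called either, with differences of 0.10 to 0.23.

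After CHZ868 washout the members leaned below the control. The median difference between CHZ_wash and DMSO_wash_exp3 was -0.17, against 0.01 over all 11355 genes, and 20 of 29 members had values below 0. Only Cdt1 passed the test, so that 0 members rose and 1 fell, where 1.96% of all genes rose and 2.07% fell. A further 11 members had an unadjusted p under 0.05, which 24.4% of all genes had. Cdt1, the licensing factor that is degraded when S phase starts, stood at 5.98, 6.08 and 6.27 log2 CPM in CHZ_wash and at 6.47, 6.61 and 6.51 in DMSO_wash_exp3. The groups did not overlap, and the difference was -0.42 ± 0.10 (adjusted p = 0.0462). The call was lost when CHZ_wash replicate 1, 2 or 3 or DMSO_wash_exp3 replicate 1 was left out (adjusted p = 0.146 to 0.183) and without the mean-variance trend (adjusted p = 0.114). Cish, Pim1 and Socs1 differed by -0.05 to 0.14, and none was called.

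Several helicase and fork genes lay below the control after CHZ868 washout without passing the adjusted test. Mcm7 differed by -0.28 ± 0.08 (adjusted p = 0.0762), Lig1 by -0.27 ± 0.08 (adjusted p = 0.0777), Mcm2 by -0.26 ± 0.09 (adjusted p = 0.13) and Gins2 by -0.25 ± 0.09 (adjusted p = 0.112). In 13 members the CHZ_wash libraries lay below all 3 controls and in 1 above them (16.1% and 14.9% of all genes). Without DMSO_wash_exp3 replicate 3, 6 members were called lower, namely Cdt1, Mcm2, Mcm7, Cdc6, Lig1 and Uhrf1. The number of genes called in the whole table then rose from 457 to 1426, with 5.87% of all genes lower. Not every member leaned this way. Rfc4 differed by 0.28 ± 0.13 (adjusted p = 0.225), Dut by 0.13 ± 0.10 and Rrm2 by 0.12 ± 0.08.

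The washout effects of the 2 inhibitors were compared by the difference of the within-table effects over 10078 shared genes. No member passed (0 higher, 0 lower), where 0.972% of all genes were higher and 0.923% lower, and 8 members had an unadjusted p under 0.05, against 18.9% of all genes. The inhibitors were washed out in separate experiments whose tables were normalized separately, and the member levels of the controls were far apart (Rrm1 at a mean of 7.22 log2 CPM in DMSO_wash and 9.23 in DMSO_wash_exp3, Gins2 at 4.84 and 8.01), so a difference between the inhibitors cannot be told apart from one between the experiments. Cdt1 was nearest, with a ruxolitinib effect above the CHZ868 effect by 0.45 ± 0.11 (adjusted p = 0.0565), followed by Pole at 0.36 ± 0.11 (adjusted p = 0.104) and Lig1 at 0.30 ± 0.09 (adjusted p = 0.107). Cdt1 passed when genes with a mean under 3 log2 CPM were left out (adjusted p = 0.0495) and on log2(CPM + 5) (adjusted p = 0.0497), and over 24 alternative settings its adjusted p ran from 0.0375 to 0.125. Without DMSO_wash_exp3 replicate 3 the members called were 4 (Cdt1, Mcm2, Mcm7 and Pole), where 2.6% of all genes were higher and 2.66% lower. Without replicate 2 of that group it was Rrm1 alone, where 3.28% of all genes were higher and 2.95% lower.

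The CHZ868 effect under continuous exposure was then compared with the effect after washout, each within its own table. These were separate experiments, and member levels of their controls differed in both directions. Rrm1 had a mean of 8.52 log2 CPM in DMSO_treated and 9.23 in DMSO_wash_exp3, and Pola1 7.25 and 6.59. A difference between the exposures therefore cannot be told apart from one between the experiments. The CHZ868 effect was more positive under continuous exposure in 15 members and more negative in 1, Rfc4. Of 11175 genes, 23.2% and 23.8% were called in these directions. Rrm1 differed most, with an effect of 1.02 under exposure and -0.24 after washout and a difference of 1.26 ± 0.13 (adjusted p = 7.88e-07). All 6 MCM2-7 genes and all 3 helicase activation genes differed, by medians of 0.62 and 0.54. Of the 18 members that rose under continuous CHZ868, 14 had values below 0 after washout, as had 20 of all 29 members. The median washout difference over all genes was 0.01, and the share of all genes below 0 was not counted. The Rfc4 call (-0.47 ± 0.18, adjusted p = 0.0361) was lost without the trend and when any 1 of 8 libraries was left out (DMSO_treated 1, 2 or 3, CHZ_treated 2 or 3, CHZ_wash 1, DMSO_wash_exp3 1 or 3). The Mcm5 call (adjusted p = 0.027) was lost when any 1 of 7 libraries was left out (DMSO_treated 2 or 3, CHZ_treated 1, CHZ_wash 1 or 2, DMSO_wash_exp3 1 or 2), and that of Gins1 without DMSO_treated replicate 1. Under quantile normalization 13 members were higher and 1 lower (23.5% and 23.2% of all genes). Mcm2, Mcm5 and Pole were no longer called and Ccne1 was called. Without DMSO_wash_exp3 replicate 3 it was 17 higher and 0 lower (23.1% and 23.3% of all genes).

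**Figure D4:**
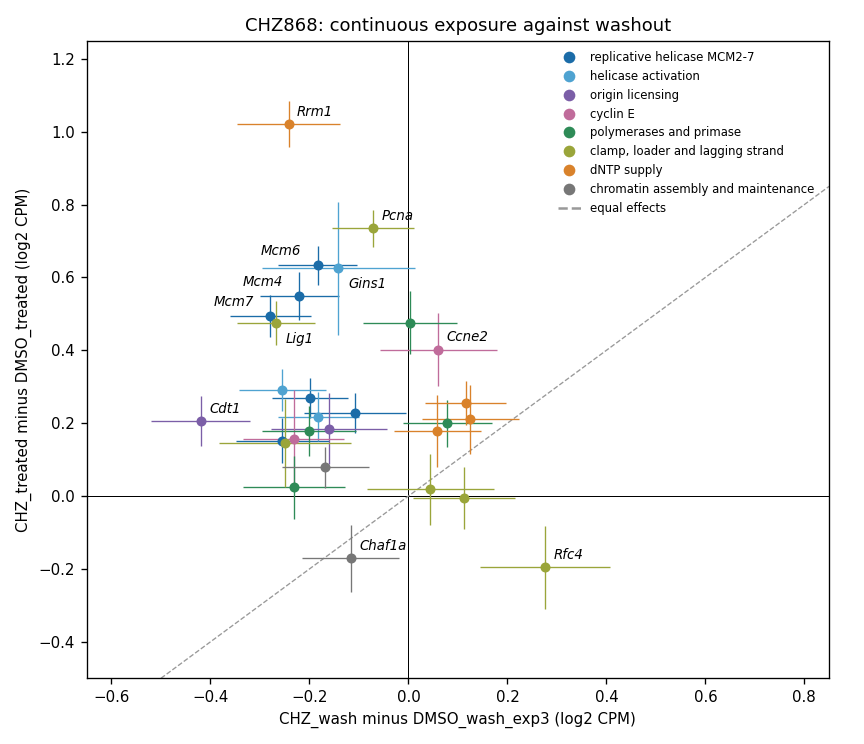
Each point is 1 of the 29 members, with the CHZ_wash minus DMSO_wash_exp3 difference on the horizontal axis and the CHZ_treated minus DMSO_treated difference on the vertical axis, both in log2 CPM with SE bars from limma. Most points lie to the upper left of the dashed line of equal effects. Rrm1 sits at -0.24 and 1.02, Cdt1 at -0.42 and 0.21, and Rfc4 below the line at 0.28 and -0.20.

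Other genes of the replication machinery moved in both directions under continuous CHZ868. Of 57 further replication genes 56 were tested, and 30 rose and 8 fell (median 0.26), where 26.8% and 26.4% of all genes did. The largest increases were Pold3 (1.05, a polymerase delta subunit), Gins4 (0.99), Asf1b (0.97, a histone chaperone), Prim2 (0.86, the large primase subunit) and Gmnn (0.75, geminin, the inhibitor of Cdt1). The largest decreases were Recql4 (-0.70) and Mtbp (-0.62), which both act in origin firing, Tk1 (-0.43, thymidine kinase), Orc2 (-0.32, an origin recognition subunit) and Mcm9 (-0.29). In Ruxo_treated, 22 of 56 lay above and 6 below DMSO_treated with no overlap (24.6% and 20.1% of all genes). Among them were Gins4 (0.51), Prim2 (0.48), Pold3 (0.40), Asf1b (0.39) and Gmnn (0.31) above and Orc2 (-0.51) and Recql4 (-0.23) below. Without replicate 2 it was 28 and 9 of the list, and the shares of all genes were also higher, as given above for the members. After CHZ868 washout 1 of 56 rose and 3 fell, where 1.96% and 2.07% of all genes did. Without DMSO_wash_exp3 replicate 3 it was 4 and 7, where 6.68% and 5.87% of all genes did. After ruxolitinib washout none of 57 was called (0, with 2 at an unadjusted p under 0.05). Over all genes 0% were called higher and 0.0229% lower, and 7.03% had an unadjusted p under 0.05.

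Of 19 genes that control entry into S phase, 12 rose and 1 fell under continuous CHZ868 (median 0.34), against 26.8% and 26.4% of all genes. Among the E2F genes, E2f8 (1.00), E2f4 (0.65), E2f1 (0.42), E2f7 (0.35) and E2f6 (0.27) rose, and E2f2 (-0.23), E2f3 (-0.09) and E2f5 (-0.49) did not pass. E2f1 is an activator, while E2f4, E2f6, E2f7 and E2f8 act mainly as repressors of these targets. All 3 Rb family genes rose, Rbl2 by 0.98 ± 0.07 (adjusted p = 1.12e-08), Rb1 by 0.39 ± 0.09 and Rbl1 by 0.23 ± 0.08. Cyclin A2 (Ccna2) rose by 1.04 and the emi1 gene Fbxo5 by 0.47, while the phosphatase gene Cdc25a fell by 0.43. Of the dimerization partners of E2F, Tfdp2 rose by 0.35 and Tfdp1 differed by -0.12 (adjusted p = 0.126). In Ruxo_treated 7 of the 19 lay above and 3 below DMSO_treated with no overlap (24.6% and 20.1% of all genes). Rbl2 was at 0.76, E2f8 at 0.73 and Ccna2 at 0.58. Without replicate 2 it was 8 and 4 of the 19, and the shares of all genes were also higher, as given above for the members. After CHZ868 washout E2f4 alone passed, falling by 0.64 on the log2 scale (adjusted p = 0.0323), where 1.96% of all genes rose and 2.07% fell. E2f8 was at -0.58 (adjusted p = 0.0542). The E2f4 call was lost without the trend (adjusted p = 0.103). It was also lost without CHZ_wash replicate 1, 2 or 3 or DMSO_wash_exp3 replicate 1 (adjusted p = 0.12 to 0.169). Without DMSO_wash_exp3 replicate 3 the list had 1 call higher and 3 lower, where 6.68% of all genes were higher and 5.87% lower.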

How the data were processed

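RNA-seq libraries of Ba/F3 cells were analysed from 4 tables. The deposited values are log2 CPM, TMM-normalised by the authors with a small constant added and low-expression genes removed. The study's methods name kallisto on GRCm38, biomaRt, edgeR, voom and limma, whereas the submitters' processing notes list STAR 2.7.3a, edgeR 4.0.16 and GRCm39, and which applies to which table is not given in the sources used here. Libraries were grouped by their labels. Depth was read back as whole reads (within 0.1 read) for 15 libraries. Groups were compared within a table by limma 3.58.1 (R 4.3.3) with a mean-variance trend, and adjusted p under 0.05 was the threshold. Differences of effects used genes shared by both tables. Errors are SE from limma, n = 3. Ruxo_treated was only described. Scripts were tested on simulated data. All 29 members are named, with Cish, Pim1 and Socs1, the E2F and Rb family genes and up to 5 genes per list and direction with the largest called difference under continuous CHZ868. Alternatives covered variance models, normalizations, filters, constants, thresholds, the replicate block and leaving out each library. Promoters came from RefSeq (24 of 29 members matched) and near copies from minimap2 2.31. Members and lists were chosen with earlier results of these data known.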

Additional observations from a re-analysis of the deposited data

Results flagged for a closer look

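These values stood out because the CHZ868 effect differed between continuous exposure and washout, by a test of the difference of the 2 within-table effects (limma, adjusted p under 0.05). Each value is the continuous effect minus the washout effect in log2 units. Among the helicase subunits it was 0.82 for Mcm6, 0.77 for Mcm7, 0.77 for Mcm4, 0.47 for Mcm3, 0.41 for Mcm2 and 0.34 for Mcm5. Among the helicase activators it was 0.77 for Gins1, 0.54 for Gins2 and 0.40 for Mcm10, and for the licensing factor Cdt1 it was 0.63. At the fork it was 0.81 for Pcna, 0.74 for Lig1, 0.47 for Prim1 and 0.38 for Pole. Rrm1 had 1.26, and Rfc4 had -0.47, the only negative value among the 16. The exposures differ in length, in the washing steps and in the experiment, table and control group they were measured in. The parts of these in the differences cannot be told apart and were not tested.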

How the results depend on the processing

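Directions of called members held in every alternative run, and calls moved as follows. Under continuous CHZ868 (18 higher, 0 lower), quantile normalization gave 9 higher and 1 lower (27.2% and 25.1% of all genes). A minimum of 0.58 log2 units gave 4 higher (10.7% of all genes). Leaving out 1 library gave 13 to 19 higher and 0 to 1 lower (Rfc4 without CHZ_treated replicate 1, Chaf1a without replicate 3). Over all genes the shares were then 22.7% to 27.9% higher and 20.9% to 27.2% lower. After CHZ868 washout (1 lower), the count was 0 without the trend, with the 0.58 minimum and at adjusted p under 0.01, and 0 to 6 with 1 library left out. For the washout effects of ruxolitinib minus CHZ868 (0), it was 1 with a mean of at least 3 log2 CPM, 1 on log2(CPM + 5) and 0 to 4 with 1 library left out. The continuous minus the washout effect of CHZ868 had 15 higher and 1 lower. With the 0.58 minimum it was 8 higher and 0 lower (15.9% and 17.9% of all genes). No trend and adjusted p under 0.01 each gave 0 lower (23.2% and 16.8% of all genes). Leaving out 1 library gave 0 to 1 lower. For Ruxo_treated below DMSO_treated (1), it was 0 with no centring and 1 to 2 with 1 library left out. The cause of these shifts was not tested. The labels do not say whether the replicate numbers pair the libraries. Deviations of same-numbered libraries correlated at -0.07 to 0.05 over genes, so no shared deviation was seen, which cannot exclude pairing. A replicate block gave 18 higher and 0 lower under continuous CHZ868, with Mcm2 lost (adjusted p = 0.0552) and Dut gained (adjusted p = 0.0385), 16 higher and 1 lower for continuous minus washout, and 2 members below DMSO_treated in Ruxo_treated, and changed no other count of members. In members that were not called, the sign changed in some settings for 4 members under continuous CHZ868 (Fen1, Pold1, Rpa2 and Uhrf1), 12 after ruxolitinib washout and 3 after CHZ868 washout. With 3 libraries a group, an exact permutation test of 1 gene cannot go below 0.1, and Gins1, at 97 to 234 reads per library, is the member that depth limits most. Over all genes, the number called under continuous CHZ868 went from 6214 to 2941 with the 0.58 minimum. After CHZ868 washout it went from 457 to 0 without the trend or at adjusted p under 0.01 and to 174 with the 0.58 minimum, and ranged from 0 to 1426 with 1 library left out, with 0, 1 and 0 without CHZ_wash replicates 1, 2 and 3. After ruxolitinib washout it went from 3 to 0 with the block and 9 without the trend. For the difference of the washout effects it went from 191 to 14 without the trend, 122 with vooma weights, 6 with the block, 94 with the 0.58 minimum, 4 at adjusted p under 0.01, and 5 to 628 with 1 library left out.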

Other observations

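Mitotic genes were mostly higher under both inhibitors, set against the same DMSO_treated libraries. Of 30 fixed mitosis genes, 21 rose and 2 fell under continuous CHZ868 (median 0.55), where 26.8% and 26.4% of all genes did, and 27 lay above DMSO_treated with no overlap in Ruxo_treated (median 0.37), where 24.6% of all genes did (median 0.04). Without Ruxo_treated replicate 2 it was 29 (31.6% of all genes). Under CHZ868 the largest increases were Nusap1 (1.23), Ube2c (1.21), Mad2l1 (1.13), Plk1 (0.85) and Kif20a (0.82), which act in the spindle and in exit from mitosis, and Espl1 (separase, -0.49) and Cenpa (the centromeric histone, -0.35) fell. After CHZ868 washout Plk1 fell by 0.46 on the log2 scale (adjusted p = 0.0329). This was the only call in that list, where 1.96% of all genes rose and 2.07% fell. The Plk1 call was lost without the trend (adjusted p = 0.103). It was also lost without CHZ_wash replicate 1, 2 or 3 or DMSO_wash_exp3 replicate 1 (adjusted p = 0.122 to 0.163). Without DMSO_wash_exp3 replicate 3 the list had 2 calls higher and 5 lower, where 6.68% of all genes were higher and 5.87% lower.

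Of 18 genes of replication stress and the p53 response, 7 rose and 2 fell under continuous CHZ868 (median 0.10), against 26.8% and 26.4% of all genes. Ccng1 (0.77), Wee1 (0.52), Cdkn1a (0.36), Chek1 (0.34) and Hus1 (0.30) rose, and the checkpoint kinase gene Atr (-0.33) and Rad9a (-0.19) fell. Ccng1 and Cdkn1a are p53 targets, and Wee1 and Chek1 encode checkpoint kinases. After washout of either inhibitor 0 of the 18 were called by limma, with 3 (CHZ868) and 1 (ruxolitinib) at an unadjusted p under 0.05. Over all genes 24.4% and 7.03% were at that level. Without DMSO_wash_exp3 replicate 3, 1 was called higher after CHZ868 washout, as were 6.68% of all genes.

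Of 9 markers of other cell types, Pecam1 was the one listed in all tables, at 7.61, 7.43 and 7.62 log2 CPM in DMSO_treated and 8.34, 8.24 and 8.41 in CHZ_treated. It is an endothelial marker that blood cells also make, and its part in the results was not tested.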
